A study of Mus musculus with 58 samples.

Results

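Collagens and other genes of the extracellular matrix were followed in the quadriceps of mouse models of myotonic dystrophy. A list of 40 gene symbols was used, and every probe set annotated to exactly 1 of these symbols was taken from the array tables. That gave 85 probe sets for 39 genes, out of 18193 genes with an annotated probe set, and the remaining symbol is not analysed here. The 39 genes are 16 collagen chains and 23 glycoproteins, proteoglycans and crosslinking proteins. Total RNA of quadriceps from 34 male mice was measured on 58 Affymetrix arrays in 3 experiments.

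Experiment 1 held mice of the CUGexp transgenic line 20b, of the CUGexp transgenic line 41 and of FVB wild type, 6 of each, all on the FVB background and 6 months old. CUGexp mice make an RNA with an expanded CUG repeat. Their transgene is known as a human skeletal actin gene that carries the repeat, which is active in muscle fibres, so the repeat RNA is made mainly there. Experiment 2 held 3 Clcn1-null mice on the BALB background and 3 BALB wild-type mice, 3 months old. Experiment 3 held 5 Mbnl1-null mice on the FVB background and 5 FVB wild-type mice, 3 months old. The labels name no treatment for any group. Clcn1 encodes the chloride channel of the muscle fibre membrane, and its loss causes myotonia. Mbnl1 encodes a splicing regulator that CUG repeat RNA binds. Lines 20b and 41 were set against the same wild-type mice, and each mutant group was compared only within its experiment.

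Muscle fibres are embedded in a matrix with a basement membrane on each fibre and a fibrous network between fibres and bundles. The basement membrane is a sheet of laminins and type IV collagen held together by nidogens and perlecan. The fibrous network is built on collagens I, III and V, whose fibril width and spacing are set by small leucine-rich proteoglycans and fibril-associated collagens, while elastic fibres and matricellular proteins such as periostin and tenascin C vary with load and repair. Fibroblasts and related interstitial cells make most fibrillar collagen in muscle. A fibrous endomysium is known in dystrophic muscle.

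The promoter windows of 5 genes on which the comparisons turn are shown because these genes were called in several models or, for Col4a1 and Col4a2, because neighbouring genes moved together in 1 model. Each window runs from 250 bases before to 50 bases after the annotated start, is written 5′ to 3′ along the gene, and comes from RefSeq on build GRCm38.p6. Postn has 2 annotated starts. Capitals mark exact matches on either strand to 3 short motifs. These are TATAAA for the TATA box, the letters CCAAT for the box of that name, and the core of the GC box, GGGCGG, and a match on the other strand appears as its reverse complement.
Bgn, chrX:73483351-73483650, plus strand: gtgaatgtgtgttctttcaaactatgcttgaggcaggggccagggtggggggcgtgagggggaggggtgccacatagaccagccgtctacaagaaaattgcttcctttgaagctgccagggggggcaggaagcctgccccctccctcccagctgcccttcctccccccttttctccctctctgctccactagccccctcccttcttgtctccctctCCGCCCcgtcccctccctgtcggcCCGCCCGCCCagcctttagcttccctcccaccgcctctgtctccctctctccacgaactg
Col24a1, chr3:145292222-145292521, plus strand: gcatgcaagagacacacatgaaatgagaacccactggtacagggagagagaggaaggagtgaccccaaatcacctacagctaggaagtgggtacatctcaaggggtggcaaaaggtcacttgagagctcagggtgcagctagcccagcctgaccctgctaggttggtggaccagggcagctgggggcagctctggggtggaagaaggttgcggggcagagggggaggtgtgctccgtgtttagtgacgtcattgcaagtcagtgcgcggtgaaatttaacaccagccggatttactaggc
Col4a1, chr8:11312777-11313076, minus strand: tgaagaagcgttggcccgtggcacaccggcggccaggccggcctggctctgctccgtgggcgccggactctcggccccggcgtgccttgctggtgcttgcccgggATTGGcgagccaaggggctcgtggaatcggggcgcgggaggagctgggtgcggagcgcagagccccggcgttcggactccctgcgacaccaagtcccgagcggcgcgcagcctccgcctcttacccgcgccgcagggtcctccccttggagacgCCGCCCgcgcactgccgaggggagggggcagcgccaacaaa
Col4a2, chr8:11312555-11312854, plus strand: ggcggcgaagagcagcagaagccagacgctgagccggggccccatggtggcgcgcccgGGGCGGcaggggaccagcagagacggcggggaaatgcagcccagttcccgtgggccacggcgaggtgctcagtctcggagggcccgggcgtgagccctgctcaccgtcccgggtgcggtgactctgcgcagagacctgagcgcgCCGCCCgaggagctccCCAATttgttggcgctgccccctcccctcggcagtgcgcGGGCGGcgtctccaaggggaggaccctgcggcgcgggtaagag
Postn, chr3:54359017-54359316, plus strand: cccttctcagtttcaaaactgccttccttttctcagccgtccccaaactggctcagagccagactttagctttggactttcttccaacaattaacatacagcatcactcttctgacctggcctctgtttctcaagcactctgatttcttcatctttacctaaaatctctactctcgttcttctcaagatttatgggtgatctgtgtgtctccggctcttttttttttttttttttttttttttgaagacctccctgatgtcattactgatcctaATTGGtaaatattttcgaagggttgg
Postn, chr3:54360857-54361156, plus strand: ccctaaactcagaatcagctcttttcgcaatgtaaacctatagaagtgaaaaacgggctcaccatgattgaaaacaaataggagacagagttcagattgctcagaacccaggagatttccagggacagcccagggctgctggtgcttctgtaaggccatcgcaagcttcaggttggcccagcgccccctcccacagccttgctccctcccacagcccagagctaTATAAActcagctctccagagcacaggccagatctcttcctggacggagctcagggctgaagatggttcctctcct
Bgn had 3 GGGCGG matches, 2 of which overlap, and Col24a1 had no match to any of these motifs. The windows of Col4a1 and Col4a2 lie head to head on opposite strands and share 78 bases, so part of one is the reverse complement of part of the other. One of the Postn windows held the TATAAA match 26 bases before the start. Windows were found for 25 of the 39 genes (31 windows), and GGGCGG lay in 58.1% of them against 35.7% of all 32851 promoter windows. TATAAA lay in 16.1% against 13.6%, and CCAAT in 29.0% against 37.4%. A match is only these letters in this window.

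Values are log2 intensities, a log2 change is the mutant mean minus the mean of its comparison group, and a gene was called at a Benjamini-Hochberg adjusted p under 0.05 in a limma fit over all genes tested. Each gene stands for its brightest probe set over all arrays unless another is named. With every probe set tested on its own, 18.9% were called in line 20b, 9.57% in line 41, 6.89% between the lines, 4.72% in the Clcn1-null comparison and 16.2% in the Mbnl1-null comparison. Nothing in the labels describes litters or batches, so p-values measure the spread between these mice. Median array intensities ran from 298.5 to 437.8 on 430A, from 22.3 to 34.4 on 430B and from 9.56 to 11.6 on the single array type of experiment 3. The experiments look normalised apart, so no level was compared between them. All 10 muscle fibre markers, Acta1 and Ckm among them, passed the filter in each experiment, but some were called. Line 20b had 3 such calls, Myh1 and Mb higher (0.33 and 0.30) and 1 lower, and line 41 had 0. Over all genes, 19.6% and 9.46% were called in that order. Myh7 was called lower in both knockouts. Its log2 change was -4.11 (SE 0.77, adjusted p = 0.037) without Clcn1 and -4.61 (SE 1.25, adjusted p = 0.0276) without Mbnl1. Myh2 was called higher in Clcn1-null muscle (0.52). Whether fibre make-up or dissection bears on the matrix genes was not tested. Clcn1 itself had a log2 change of -1.42 (SE 0.27) in its knockout, and the log2 change of Mbnl1 in its own knockout was -0.73 (SE 0.06). Whether those probe sets lie in parts of the genes that the mutations alter was not tested.

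Single mice stood apart in matrix genes. Among the 6 line 20b mice, mouse 1 was the lowest in 71.8% of the 39 matrix genes and in 15.5% of all genes tested. Among the 5 wild-type mice of experiment 3, mouse 1 was the lowest in 81.6% of the 38 matrix genes tested there and in 15.7% of all genes. Mbnl1-null mouse 5 was the lowest of its group in 52.6% of matrix genes, and also in 48.4% of all genes. Counts of called genes are given below with and without these mice, and medians with and without line 20b mouse 1 and wild-type mouse 1 of experiment 3. Col14a1 and Nid1 remained called in line 20b without its mouse 1.

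In line 20b the matrix genes split. Of 39 genes tested, 9 were called (19.6% of all 13029 genes were called in this comparison), 4 higher (9.06% of all genes) and 5 lower (10.6% of all genes). The higher ones were Col24a1, Col14a1, Bgn and Lama2, and the lower ones Fbln1, Nid1, Lox, Dcn and Fbln5. The median log2 change of the 39 genes was -0.02, beside -0.01 over all genes tested. Without line 20b mouse 1, 9 genes were again called, with Mgp and Col6a1 called higher and Dcn and Lox no longer called, and the median was 0.03. Without wild-type mice 1 and 2 together, 7 genes were called, since Nid1, Dcn and Lox, 3 of the 5 lower calls, were no longer called and Thbs1 was called lower. Rescaling each array to a common median of the genes above the filter also gave 6 higher and 3 lower in place of 4 and 5, and it turned the calls over all genes to 1605 higher and 1134 lower, against 1181 and 1378 without it. In muscle, which is a mixture of cells, fewer cells of a type and less RNA per cell cannot be told apart.

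In line 41 only Lama2 (higher) and Col15a1 (lower) were called among 39 genes, where 9.46% of all genes were called, 3.98% higher and 5.49% lower. The median log2 change was -0.05, against -0.02 over all genes. No gene of the list remained called without line 41 mouse 1, 2 or 3, or without wild-type mouse 2 or 6, each left out alone, and none without wild-type mice 1 and 2 together. Between the lines 4 of the 39 genes were called (5.96% of all genes were, 3.57% higher and 2.39% lower), with Col24a1 and Bgn higher and Fbln1 and Fbln5 lower in line 20b than in line 41.

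In Clcn1-null muscle Postn and Bgn were higher and Col24a1 lower, 3 of 38 genes tested (5.43% of all 13123 genes were called, 2.2% higher and 3.23% lower). A further gene, Thbs1, was below the filter. Of the 38 log2 changes 31 were positive, and their median was 0.41 against 0.02 over all genes tested. It ran from 0.37 to 0.52 when each of the 6 mice was left out in turn. The count of calls ran from 0 without BALB wild-type mouse 3 to 6 without Clcn1-null mouse 3, with 1 without BALB wild-type mouse 1.

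In Mbnl1-null muscle 13 of 38 matrix genes were called and all 13 were higher (16.3% of all 8950 genes were called, 8.11% higher and 8.19% lower). These were Postn, Col14a1, Col8a1, Bgn, Mgp, Tnc, Fbln2, Col4a1, Col6a1, Lum, Col4a2, Lamc1 and Lama2. The median log2 change was 0.38, against -0.01 over all genes tested, and 35 of the 38 changes were positive. Without wild-type mouse 1, which was low in most matrix genes, the median was 0.29, 31 changes were positive and 9 genes were called, all higher. Tnc, Lum, Col4a2, Lamc1 and Lama2 were then no longer called, and Col5a2 was called. The count was 7 without Mbnl1-null mouse 3 or wild-type mouse 5, and 8 without Mbnl1-null mouse 2 or 4 or wild-type mouse 2. Without Mbnl1-null mouse 5 it was 14.

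**Figure D1:**
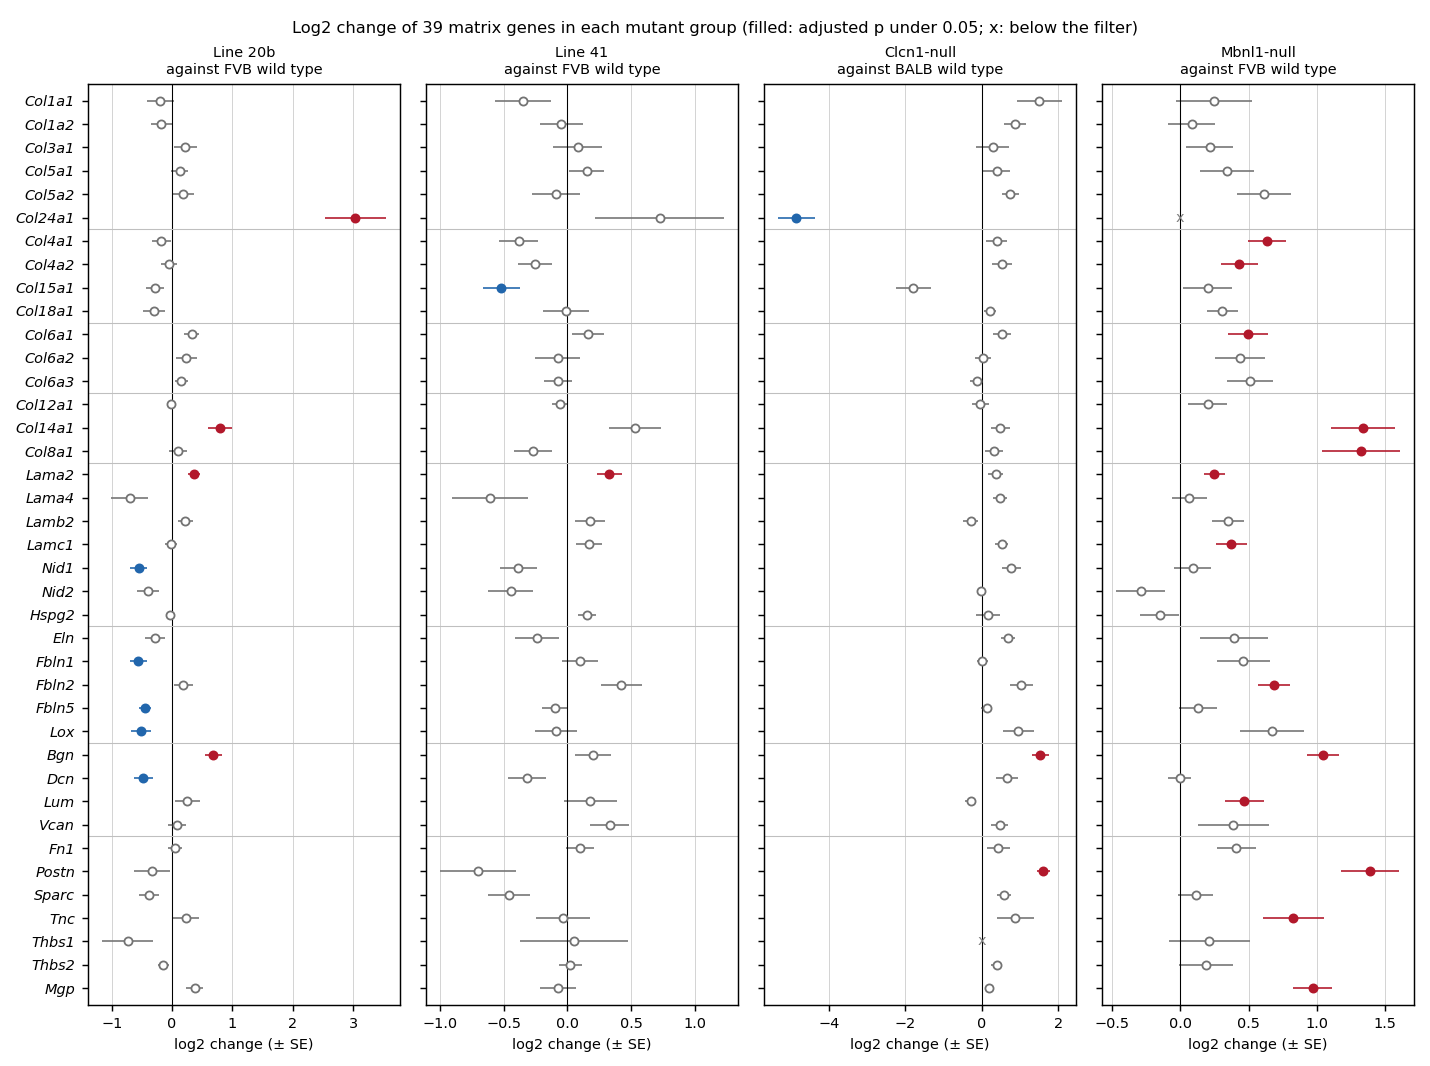
Log2 change of each of the 39 matrix genes (points, with the SE of the limma fit as bars) in the 4 mutant groups, ordered by role with grey lines between roles, on a horizontal scale of its own in each panel, with filled points for an adjusted p under 0.05 and an x for a gene below the filter. Of the 38 points in the Mbnl1-null panel 35 lie right of 0, while those of line 20b and line 41 lie on both sides of it.

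Fibrillar collagens form the tensile fibres of the tissue. Their median log2 change was 0.15 for line 20b and 0.02 for line 41, while it was 0.56 for Clcn1-null and 0.25 for Mbnl1-null muscle. Of the 6 chains measured, Col24a1, a minor fibrillar collagen best known from developing bone, was the only one called in any comparison. In line 20b it read 6.71 at the lowest, 8.31 at the median and 8.52 at the highest. In line 41 the values were 3.83, 5.93 and 7.72, and in FVB wild type 3.68, 5.14 and 5.86. Every line 20b mouse lay above every wild-type mouse, while line 41 overlapped both other groups. In wild type 2 of 6 mice, and in line 41 2 of 6, lay under the intensity of 32, so these levels are near background and no fold is given. The log2 change was 3.04 (SE 0.51, adjusted p = 0.000298) in line 20b, and 0.72 (SE 0.51, adjusted p = 0.438) in line 41. The difference between the lines, 2.31 (SE 0.51), passed the test with an adjusted p of 0.0114. Line 20b mouse 3 lay well below the other 5 mice of its line, and the group remained above wild type with it.

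In Clcn1-null muscle Col24a1 went the other way. It read 4.99, 5.27 and 5.59 in mutant mice, against 10.84, 9.03 and 10.53 in the BALB wild-type mice. The mutant mice were near the filter value of 5, and the BALB wild-type mice were well above it. The log2 change of Col24a1 was -4.85 (SE 0.48, adjusted p = 0.00685). With 1 Clcn1-null mouse under an intensity of 32 the gene passed the filter through the wild-type group, where it is high, and no fold is given. In experiment 3 the gene was below the filter, with 5.71, 4.92, 5.71, 5.66 and 4.38 in Mbnl1-null mice and 4.30, 3.54, 4.41, 3.88 and 4.01 in FVB wild-type mice. When the filter was dropped, Col24a1 was called higher in Mbnl1-null muscle as well (log2 change 1.25, adjusted p = 0.0176), where every wild-type mouse lay under an intensity of 32. Col24a1 has a single probe set on these arrays, so no other probe set could be set beside it.

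The major fibrillar chains were not called in any of the 4 mutant groups. Col1a1 and Col1a2, which together make collagen I, had log2 changes of -0.19 (SE 0.22) and -0.18 (SE 0.17) in line 20b and of -0.35 (SE 0.22) and -0.05 (SE 0.17) in line 41. In Mbnl1-null muscle they were 0.25 (SE 0.28) and 0.08 (SE 0.17). In Clcn1-null muscle they were larger and uncertain. Col1a1 read 11.55, 11.49 and 12.93 in Clcn1-null mice, against 10.88, 9.40 and 11.16 in the BALB wild-type mice, which do not overlap, yet the log2 change of 1.51 (SE 0.59) had an adjusted p of 0.218. Col1a2 had a log2 change of 0.86 (SE 0.29, adjusted p = 0.162) there. Col3a1 and Col5a2, which lie next to each other on chromosome 1, had log2 changes of 0.22 (SE 0.17) and 0.61 (SE 0.20) in Mbnl1-null muscle. Col5a2 missed the threshold with an adjusted p of 0.058, and its partner chain Col5a1 had a log2 change of 0.34 (SE 0.20).

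**Figure D2:**
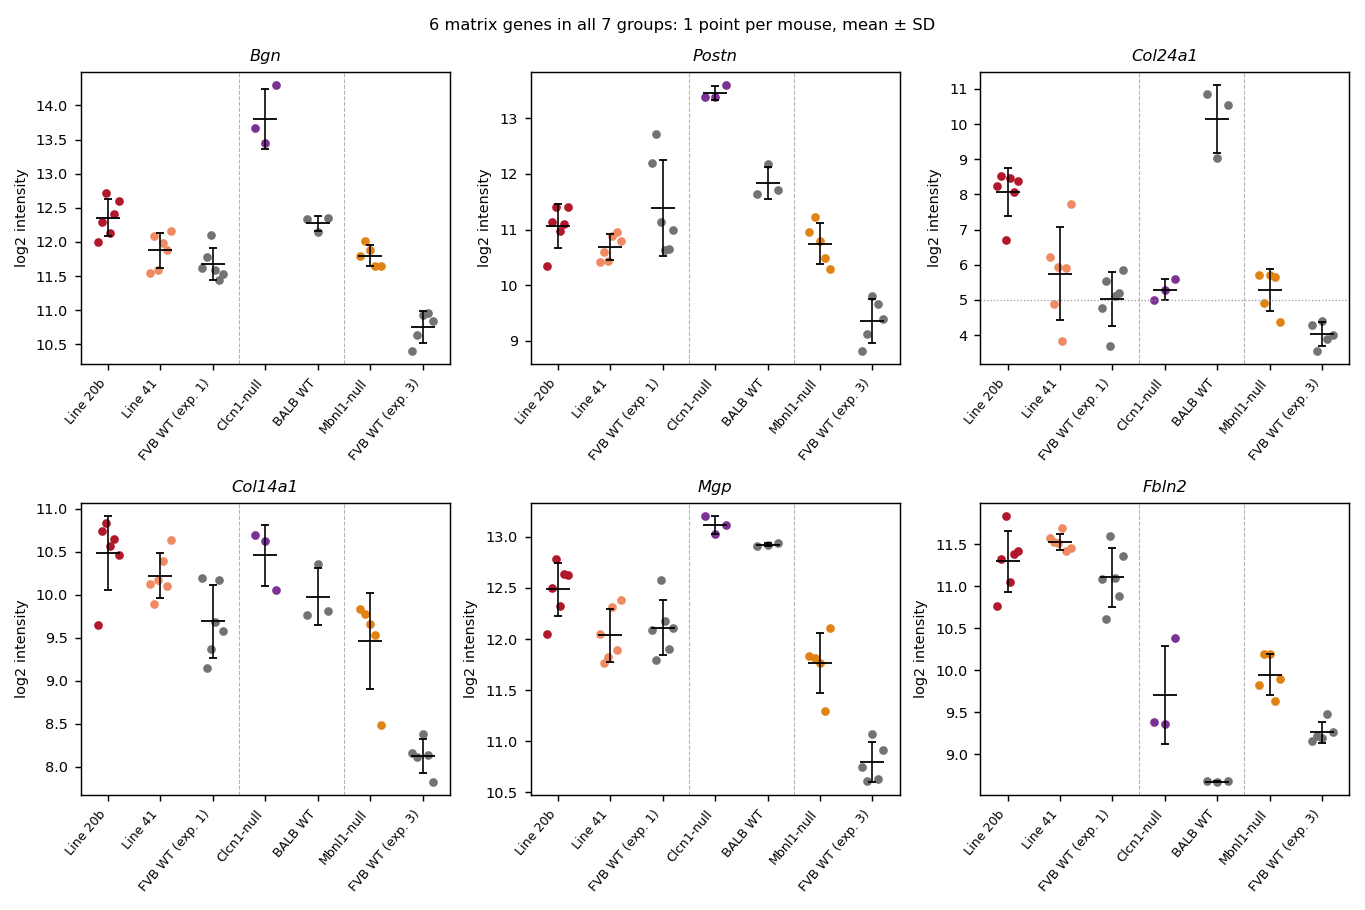
Log2 intensity of Bgn, Postn, Col24a1, Col14a1, Mgp and Fbln2 in each mouse of the 7 groups (coloured points for mutant groups, grey for wild type), with black bars for the mean ± SD, dashed lines between the experiments and a dotted line at the filter value of 5. Col24a1 is high in line 20b and in BALB wild type, and Bgn is above most or all wild-type mice in line 20b, Clcn1-null and Mbnl1-null mice, while line 41 overlaps its wild type.

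Of the 4 basement membrane collagens 2 were called higher in Mbnl1-null muscle (16.3% of all genes were called) and 1 lower in line 41 (9.46%). All 4 log2 changes were negative in line 20b and in line 41, with medians of -0.23 and -0.32, and positive in Mbnl1-null muscle, with a median of 0.37. Col4a1 and Col4a2 encode the chains of the main collagen IV network and lie head to head on chromosome 8. Col4a1 read 11.94, 12.39, 12.28, 12.03 and 12.07 in Mbnl1-null mice and 11.10, 11.66, 11.44, 11.88 and 11.44 in FVB wild-type mice, with no overlap. That gave a log2 change of 0.64 (SE 0.14, adjusted p = 0.00958). Col4a2 had a log2 change of 0.43 (SE 0.13, adjusted p = 0.0492), with 10.90, 11.30, 11.30, 10.97 and 11.18 in Mbnl1-null mice against 10.28, 10.89, 10.60, 10.95 and 10.76 in wild-type mice. Those groups touched, since the highest wild-type mouse lay above the lowest Mbnl1-null mouse. In line 20b Col4a1 had a log2 change of -0.18 (SE 0.15) and was not called, while its second probe set was called lower (log2 change -0.39, SE 0.11, adjusted p = 0.0243). In line 41 the changes of Col4a1 and Col4a2 were -0.38 (SE 0.15) and -0.26 (SE 0.13), neither called. In Clcn1-null muscle they were 0.39 (SE 0.27) and 0.52 (SE 0.26), also not called.

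Collagens XV and XVIII are the basement membrane collagens that carry heparan or chondroitin sulfate chains. Col15a1 was the only collagen called in line 41. It read 8.56, 9.08 and 9.35 (lowest, median and highest) in line 41, against 9.28, 9.53 and 9.74 in FVB wild type, and the highest line 41 mice reached into the wild-type range. The log2 change was -0.52 (SE 0.15, adjusted p = 0.0316), and it was -0.29 (SE 0.15, adjusted p = 0.192) in line 20b. In Clcn1-null muscle Col15a1 read 8.63, 8.41 and 10.01 in the mutant mice and 10.95, 10.37 and 11.11 in BALB wild type. The groups did not overlap, but mouse 3 stood off from the other Clcn1-null mice and the log2 change of -1.80 (SE 0.46) had an adjusted p of 0.0848. Without Clcn1-null mouse 3 the log2 change of Col15a1 was -2.29 (SE 0.25, adjusted p = 0.00957). Col18a1 was not called anywhere, with log2 changes from -0.30 in line 20b to 0.31 in Mbnl1-null muscle.

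Collagen VI forms beaded filaments that tie the basement membrane to the interstitium, and loss of its chains causes muscle disease. Its 3 chains had log2 changes of 0.50 (Col6a1, SE 0.15), 0.44 (Col6a2, SE 0.18) and 0.51 (Col6a3, SE 0.17) in Mbnl1-null muscle. The sizes were close, and Col6a1 alone passed the test (adjusted p = 0.0395), with adjusted p of 0.126 for Col6a2 and 0.0568 for Col6a3. Col6a1 read 11.60, 11.68, 12.00, 11.74 and 11.52 in Mbnl1-null mice and 10.68, 11.18, 11.41, 11.45 and 11.35 in wild-type mice. All Mbnl1-null mice lay above all wild-type mice, and wild-type mouse 1 was far below the rest. In line 20b the collagen VI changes ran from 0.15 to 0.32 and in line 41 from -0.08 to 0.16, none called. In Clcn1-null muscle Col6a1 had a log2 change of 0.53 (SE 0.24) and Col6a2 and Col6a3 of 0.03 and -0.14.

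Col14a1 and Col12a1 encode collagens that sit on the surface of collagen I fibrils, and Col8a1 encodes a short-chain collagen known from vessel walls and scarring tissue. Col14a1 read 9.65, 10.61 and 10.84 (lowest, median and highest) in line 20b, 9.89, 10.15 and 10.64 in line 41 and 9.15, 9.63 and 10.19 in FVB wild type. The ranges overlapped because line 20b mouse 1 lay far below its 5 group mates, which were all above every wild-type mouse. Col14a1 had a log2 change of 0.79 (SE 0.20, adjusted p = 0.00979) in line 20b and 0.53 (SE 0.20, adjusted p = 0.116) in line 41, and the difference between lines, 0.26, was not called (adjusted p = 0.557). Another Col14a1 probe set had a log2 change of 0.44 (SE 0.18) in line 20b and was not called.

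In Mbnl1-null muscle Col14a1 read 9.83, 9.78, 9.66, 9.54 and 8.48, against 8.16, 8.11, 8.38, 8.14 and 7.82 in FVB wild type. Mouse 5 was low for its group but still above every wild-type mouse. The log2 change of Col14a1 was 1.33 (SE 0.23, adjusted p = 0.00295), and the other probe set named above was called too (log2 change 1.10). Col8a1 read 8.29, 9.78, 9.02, 8.54 and 8.01 in Mbnl1-null mice and 7.11, 7.17, 7.63, 7.64 and 7.49 in wild-type mice, again without overlap. Its log2 change was 1.32 (SE 0.29, adjusted p = 0.00952). In the other mutant groups Col8a1 was not called, with log2 changes of 0.10 in line 20b, -0.27 in line 41 and 0.32 in muscle of Clcn1-null mice. Col12a1 was not called in any group.

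Of the 7 basement membrane glycoproteins 2 were called in line 20b (1 higher, 1 lower), 1 in line 41 (higher), 2 in Mbnl1-null muscle (both higher) and 0 in Clcn1-null muscle, where 19.6%, 9.46%, 16.3% and 5.43% of all genes were called in that order. Laminins are the cross-shaped trimers that start basement membrane assembly, and Lama2 encodes the alpha 2 chain of the muscle laminin, whose loss causes a congenital muscular dystrophy. Lama2 was called higher in 3 mutant groups by small amounts. It read 10.93, 11.11 and 11.39 in line 20b, 11.02, 11.04 and 11.25 in line 41 and 10.56, 10.65 and 11.07 in FVB wild type (lowest, median and highest). Of the wild-type mice 4 lay below all mice of both lines, while wild-type mice 1 and 3 lay among them. The log2 change was 0.37 (SE 0.10, adjusted p = 0.0154) in line 20b and 0.33 (SE 0.10, adjusted p = 0.048) in line 41, measured against the same wild-type mice. The call in line 41 was lost in 18 of 29 alternatives and that in line 20b in 1 of 29.

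In Mbnl1-null muscle Lama2 had a log2 change of 0.25 (SE 0.08, adjusted p = 0.047), with 9.44 to 9.63 in the 5 mutant mice and 9.13 to 9.39 in the 5 wild-type mice. The groups did not overlap, but the gap was small, and the call was lost in 15 of 20 alternatives, among them all 10 fits with 1 mouse left out. Lamc1, the gamma 1 chain found in most laminins, had a log2 change of 0.37 (SE 0.11, adjusted p = 0.0435) in Mbnl1-null muscle. Lamb2, the beta 2 chain that is enriched at the neuromuscular junction, had a log2 change of 0.35 (SE 0.12, adjusted p = 0.0691), and Lama4, a chain of vessel basement membranes, of 0.07 (SE 0.13). In Clcn1-null muscle no laminin chain was called, and Lama2 and Lamc1 had log2 changes of 0.36 (SE 0.20) and 0.52 (SE 0.17). Lama4 had log2 changes of -0.70 (SE 0.30) in line 20b and -0.61 (SE 0.30) in line 41, neither called.

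Nidogens link laminin to collagen IV. Nid1 read 10.97, 11.70 and 11.93 in line 20b, 11.45, 11.81 and 12.09 in line 41 and 12.04, 12.13 and 12.45 in FVB wild type (lowest, median and highest). All line 20b mice lay below all wild-type mice, and line 20b mouse 1 was far below the others. For Nid1 this gave a log2 change of -0.55 (SE 0.14, adjusted p = 0.0107), and another Nid1 probe set was called lower as well (-0.50, SE 0.15). In line 41 Nid1 had a log2 change of -0.39 (SE 0.14, adjusted p = 0.105) and that other probe set of -0.08. Nid2 was not called in either line, with log2 changes of -0.40 (SE 0.18) and -0.45 (SE 0.18). Hspg2, which encodes perlecan, had a log2 change of -0.03 (SE 0.07) in line 20b, while its second probe set was called lower there (-0.31, SE 0.10, adjusted p = 0.045).

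**Figure D3:**
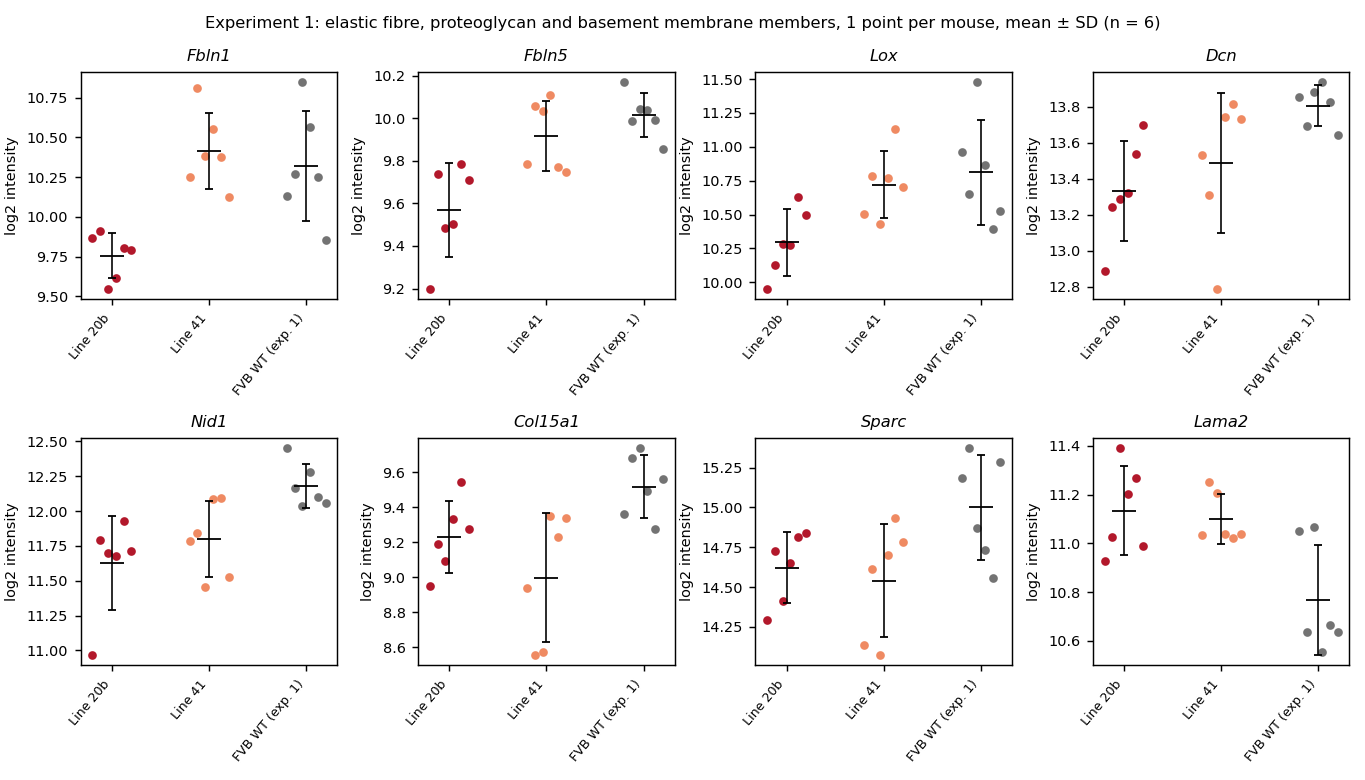
Log2 intensity of 8 matrix genes in each mouse of line 20b, line 41 and FVB wild type in experiment 1, with black bars for the mean ± SD (n = 6 each). Fbln1 and Fbln5 are low in line 20b beside both other groups, Nid1 is below wild type in every line 20b mouse, and Lama2 is above most wild-type mice in both lines.

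Elastic fibre genes held 3 of the 5 lower calls in line 20b, where 19.6% of all genes were called and the median log2 change of these 5 was -0.44. In line 41, with 9.46% of all genes called, none of the 5 was and the median was -0.09. Fibulin 1 and fibulin 5 are glycoproteins bound to elastic fibres and basement membranes, fibulin 5 being needed for elastic fibre assembly, and lysyl oxidase crosslinks both collagen and elastin. Fbln1 read 9.55, 9.80 and 9.91 in line 20b, 10.12, 10.38 and 10.81 in line 41 and 9.85, 10.26 and 10.85 in FVB wild type (lowest, median and highest). All line 20b mice lay below all line 41 mice, and 1 wild-type mouse reached the line 20b range. The log2 change in line 20b was -0.56 (SE 0.14, adjusted p = 0.00827), in line 41 0.10 (SE 0.14), and the difference between lines -0.66 (SE 0.14, adjusted p = 0.0103).

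Fbln5 followed a similar order in line 20b. It read 9.20, 9.61 and 9.79 in line 20b, 9.75, 9.91 and 10.11 in line 41 and 9.85, 10.02 and 10.17 in FVB wild type. No line 20b mouse reached the wild-type range. The log2 change was -0.44 (SE 0.10, adjusted p = 0.0035) in line 20b and -0.10 (SE 0.10) in line 41, and the lines differed by -0.35 (SE 0.10, adjusted p = 0.0462), a call lost in 17 of 28 alternatives. Lox read 9.95, 10.28 and 10.63 in line 20b, 10.43, 10.74 and 11.13 in line 41 and 10.39, 10.76 and 11.48 in wild type, and the ranges of all 3 groups overlapped. It had a log2 change of -0.52 (SE 0.16, adjusted p = 0.0316) in line 20b and of -0.09 (SE 0.16) in line 41. The difference between lines for Lox, -0.43 (SE 0.16), was not called. Eln, which encodes elastin itself, was not called in either line.

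In the knockouts the elastic fibre genes had other values. All 5 had positive log2 changes in Clcn1-null muscle, from 0.0043 for Fbln1 to 1.03 for Fbln2, and none was called. Fbln2, a fibulin that binds several basement membrane proteins, read 9.38, 9.35 and 10.38 in Clcn1-null mice against 8.68, 8.67 and 8.67 in BALB wild-type mice, which do not overlap. Its adjusted p was 0.111, and without Clcn1-null mouse 3, the highest, it was called with a log2 change of 0.70 (adjusted p = 0.0141). In Mbnl1-null muscle Fbln2 read 9.82, 10.19, 10.20, 9.64 and 9.89, against 9.16, 9.22, 9.19, 9.47 and 9.27 in FVB wild type. Every mutant mouse was above every wild-type mouse, and the log2 change was 0.68 (SE 0.12, adjusted p = 0.00298). Lox had a log2 change of 0.67 (SE 0.23, adjusted p = 0.0756), Fbln1 of 0.46 (SE 0.19) and Fbln5 of 0.13 (SE 0.14) in Mbnl1-null muscle.

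Bgn was the proteoglycan called in most groups, namely line 20b, Clcn1-null and Mbnl1-null muscle. It encodes biglycan, a small leucine-rich proteoglycan that binds collagen fibrils and the dystrophin complex. Bgn read 12.00, 12.35 and 12.72 in line 20b, 11.54, 11.93 and 12.16 in line 41 and 11.44, 11.61 and 12.11 in FVB wild type (lowest, median and highest). A single wild-type mouse, mouse 3, reached the range of line 20b. Bgn had a log2 change of 0.68 (SE 0.14, adjusted p = 0.00192) in line 20b and 0.20 (SE 0.14, adjusted p = 0.445) in line 41. The lines differed by 0.48 (SE 0.14, adjusted p = 0.0499), just inside the threshold, and that call was lost in 19 of 28 alternatives.

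In Clcn1-null muscle Bgn read 13.68, 13.45 and 14.30, against 12.33, 12.14 and 12.35 in BALB wild type. The log2 change was 1.53 (SE 0.23, adjusted p = 0.0226), a 2.89-fold higher level, and the groups were well apart. The call was nevertheless lost in 6 of 16 alternatives, among them 4 of the 6 fits with 1 mouse left out and the replicate block, with adjusted p up to 0.109. In Mbnl1-null muscle it read 11.80, 12.01, 11.87, 11.65 and 11.65, against 10.40, 10.63, 10.93, 10.96 and 10.84 in FVB wild type. The log2 change of Bgn there was 1.04 (SE 0.12, adjusted p = 0.000223), a 2.06-fold higher level, and each mutant mouse was above each wild-type mouse. All 3 Bgn probe sets were called higher in line 20b, in Clcn1-null and in Mbnl1-null muscle. Their log2 changes ran from 0.53 to 0.80 in line 20b, from 1.21 to 1.53 in Clcn1-null and from 0.81 to 1.04 in Mbnl1-null muscle.

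Dcn and Lum encode decorin and lumican, proteoglycans of the same family that lie next to each other on chromosome 10. Dcn read 12.89, 13.30 and 13.70 in line 20b, 12.79, 13.63 and 13.82 in line 41 and 13.64, 13.84 and 13.94 in FVB wild type, and some mice of both lines reached the wild-type range. In line 20b Dcn was called lower, with a log2 change of -0.47 (SE 0.15, adjusted p = 0.0344), and Lum was not called, with 0.25 (SE 0.21). A dimmer Dcn probe set had a log2 change of 0.39 (SE 0.22) and was not called. Line 41 had -0.32 (SE 0.15) for Dcn and 0.18 (SE 0.21) for Lum. In Mbnl1-null muscle Lum read 11.85, 11.65, 11.78, 11.56 and 11.05, against 10.98 to 11.28 in the 5 FVB wild-type mice, where mouse 5 of the mutant group alone lay among the wild-type mice. Lum was called higher there (log2 change 0.47, SE 0.14, adjusted p = 0.0447) and Dcn had a log2 change of -0.0046 (SE 0.08). In Clcn1-null muscle neither was called, with 0.66 (SE 0.28) for Dcn and -0.29 (SE 0.14) for Lum. Vcan, which encodes the large proteoglycan versican, was not called in any group.

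Of the matricellular and adhesive genes 3 of 7 were called in Mbnl1-null muscle and 1 of 6 in Clcn1-null muscle, all higher, and 0 of 7 in line 20b and in line 41. Of all genes 16.3%, 5.43%, 19.6% and 9.46% were called in that order. Their median log2 changes were 0.41, 0.51, -0.15 and -0.03 in that order. Postn encodes periostin, a matricellular protein of healing and fibrotic tissue that promotes collagen crosslinking. In Clcn1-null muscle it read 13.38, 13.38 and 13.59, against 11.64, 12.17 and 11.71 in BALB wild type. The groups were far apart, and the log2 change was 1.61 (SE 0.18, adjusted p = 0.00912), a 3.05-fold higher level. The call was lost in 2 of 16 alternatives, without BALB wild-type mouse 1 or 3, with limma adjusted p up to 0.0628. In Mbnl1-null muscle Postn read 10.96, 11.22, 10.79, 10.48 and 10.28, against 8.82, 9.13, 9.80, 9.66 and 9.40 in FVB wild type. The log2 change of 1.39 (SE 0.21, adjusted p = 0.0015) made it the matrix gene with the largest change in that comparison. In line 20b and line 41 the log2 changes of Postn were -0.33 (SE 0.30) and -0.70 (SE 0.30), and neither was called. Wild-type mice 1 and 2 of experiment 1 were high, at 12.19 and 12.72, beside 10.63 to 11.13 in the other 4. These mice were also high in the sum of adipocyte markers (intensities of 152872 and 163864 beside 85388 to 92793). That sum includes Car3, a gene also expressed in muscle fibres, so it does not measure adipose tissue alone. The part of adipose tissue in the Postn values was not tested.

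Mgp and Tnc were the other matricellular genes called in Mbnl1-null muscle. Mgp encodes matrix Gla protein, an inhibitor of calcification, and Tnc encodes tenascin C, an adhesion-modulating protein of tendon and injured tissue. Mgp read 11.84, 11.81, 11.77, 11.30 and 12.11 in Mbnl1-null mice and 10.75, 10.61, 11.07, 10.63 and 10.92 in FVB wild-type mice, without overlap. Its log2 change was 0.97 (SE 0.14, adjusted p = 0.00116). Tnc lay between 8.31 and 9.48 in Mbnl1-null mice, against 7.50 to 8.34 in wild-type mice, so the lowest mutant mouse lay just under the highest wild-type mouse. The log2 change of Tnc was 0.83 (SE 0.22, adjusted p = 0.0272). In line 20b Mgp had a log2 change of 0.38 (SE 0.14, adjusted p = 0.0754). It passed the test without line 20b mouse 1 (0.46, adjusted p = 0.0276) or without wild-type mouse 3 of experiment 1 (0.47, adjusted p = 0.0209).

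The other matricellular and adhesive genes were not called in the probe sets that stand for them. Fn1, which encodes fibronectin, had a log2 change of 0.41 (SE 0.14, adjusted p = 0.0749) in Mbnl1-null muscle and of 0.43 (SE 0.30) in Clcn1-null muscle. Sparc, a collagen-binding protein also called osteonectin, had a log2 change of -0.38 (SE 0.16) in line 20b and of -0.46 (SE 0.16) in line 41 without a call. A dimmer Sparc probe set was called lower in both, with -0.56 (SE 0.16, adjusted p = 0.0163) in line 20b and -0.60 (SE 0.16, adjusted p = 0.0208) in line 41. Thbs1 and Thbs2 encode thrombospondins, which bind growth factors and matrix. Thbs1 was not called, and for Thbs2 a dimmer probe set was called higher in Clcn1-null muscle (log2 change 0.75, SE 0.13, adjusted p = 0.034).

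**Figure D4:**
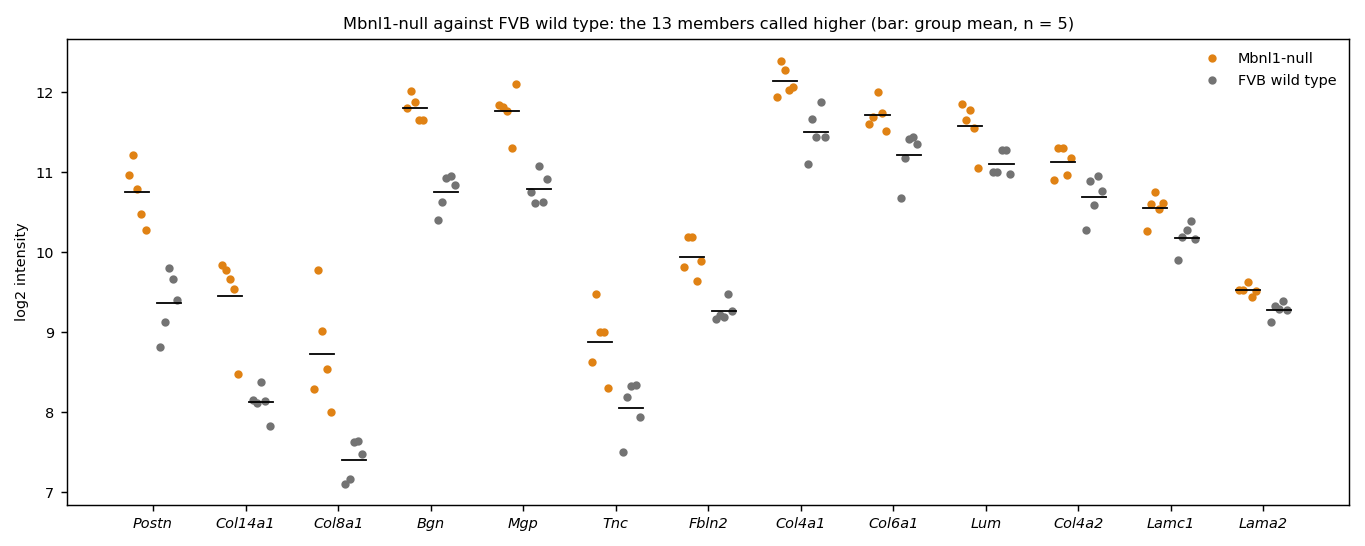
Log2 intensity of the 13 matrix genes called higher in Mbnl1-null muscle, ordered by the size of the change, with 1 point per mouse (orange for Mbnl1-null on the left of each pair, grey for FVB wild type) and a black bar for the group mean (n = 5 each). In 9 of the 13 genes no wild-type mouse reached the Mbnl1-null range, and in Col14a1 mouse 5 of the Mbnl1-null group lay far below the other 4.

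The separation of groups in single mice can be set beside that over all genes. In Mbnl1-null muscle 9 of 38 tested matrix genes had ranges that did not overlap (23.7%, beside 14.3% of all genes tested), and these 9 were among the 13 called (69.2%, beside 73.8% of all called genes). In line 20b this held for Col24a1, Nid1 and Fbln5 (7.69% of the 39, beside 10.6% of all genes), and for 33.3% of its called matrix genes beside 51.8% of all called genes. In the smaller Clcn1-null experiment 18 of 38 tested genes did not overlap (47.4%, beside 31.1% of all genes tested), and 3 of them were called. In line 41 only Nid2 did not overlap (2.56% of the 39, beside 4.32% of all genes), and it was not called.

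Line 20b and Mbnl1-null muscle, whose wild-type mice differ, shared 3 calls in the same direction, namely Bgn, Col14a1 and Lama2, of which Lama2 was lost in most alternatives in Mbnl1-null muscle. They make up 3 of the 9 calls in line 20b and 3 of the 13 in Mbnl1-null muscle. The share of calls shared over all genes was not computed, so these counts do not show whether matrix genes share more or fewer calls. Of the 38 genes tested in both, 20 changes had the same sign, and across these genes Pearson's r was 0.51, beside 0.65 across 8901 genes tested in both. None of the 5 genes called lower in line 20b was called in Mbnl1-null muscle, where Fbln1 had a log2 change of 0.46, Lox of 0.67, Nid1 of 0.09, Fbln5 of 0.13 and Dcn of -0.0046. Genes are not independent replicates, and these values describe 2 sets of mice of different ages.

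Clcn1-null and Mbnl1-null muscle shared Bgn and Postn as calls in the same direction, 2 of the 3 calls in Clcn1-null and 2 of the 13 in Mbnl1-null muscle. In Clcn1-null muscle each of these calls was lost in some fits with 1 mouse left out. The sign was the same for 30 of 37 genes tested in both, and Pearson's r was 0.33 across these genes, beside 0.39 across 8851 genes. Since 31 of 38 changes were positive in Clcn1-null and 35 of 38 in Mbnl1-null muscle, most signs would match without any gene-by-gene agreement. The shares of same signs and of shared calls over all genes were not computed for these pairs of comparisons. Line 20b and Clcn1-null muscle shared 1 call in the same direction, Bgn, and Col24a1 was called in both in opposite directions. The sign was the same for 17 of 38 genes, with Pearson's r at -0.67 and Spearman's rho at -0.17 across these genes, beside 0.14 and 0.13 across 12009 genes. Col24a1, with log2 changes of 3.04 and -4.85, had the largest change of the list in both, and r was not computed without it. Strain, array design and number of mice also differ between these experiments.

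**Figure D5:**
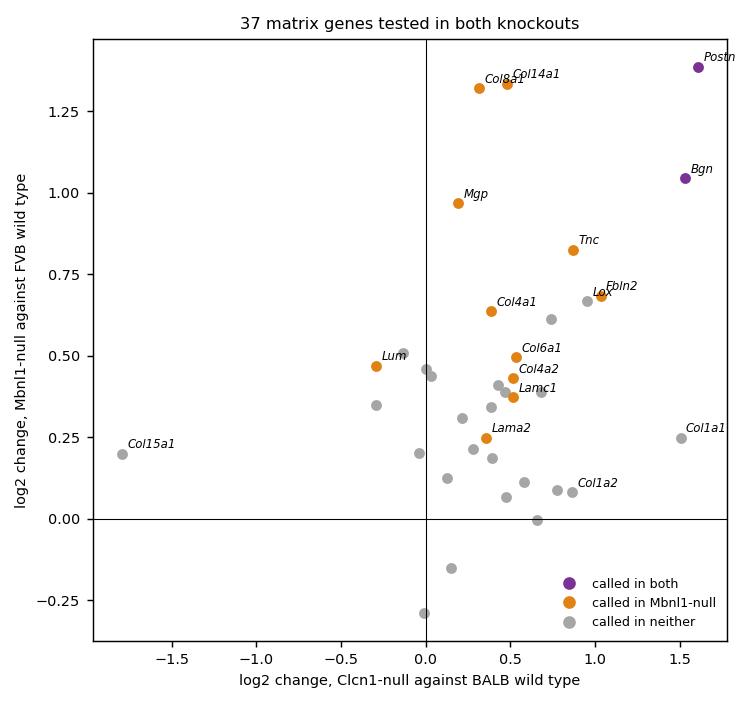
Log2 change in Clcn1-null against BALB wild type (horizontal) and in Mbnl1-null against FVB wild type (vertical) for the 37 matrix genes tested in both, with purple points for genes called in both, orange for those called in Mbnl1-null muscle and grey for those called in neither. Bgn and Postn lie at the upper right, Col8a1, Col14a1 and Mgp lie high with smaller changes in Clcn1-null muscle, and Col15a1 lies far to the left.

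Genes that make, modify and bind the matrix were counted beside the list, in 4 lists. In line 20b 3 of 22 genes of collagen synthesis and crosslinking were called (1 higher, 2 lower), 2 of 21 other collagens (both higher), 10 of 38 other matrix glycoproteins and proteoglycans (4 higher, 6 lower) and 11 of 27 matrix receptors (4 higher, 7 lower). These are 13.6%, 9.52%, 26.3% and 40.7%, beside 19.6% of all genes. In line 41 the counts were 2 of 22 (1 higher, 1 lower), 0 of 21, 6 of 38 (3 higher, 3 lower) and 4 of 27 (2 higher, 2 lower), or 9.09%, 0%, 15.8% and 14.8%, beside 9.46% of all genes. In Clcn1-null muscle they were 1 of 21 (lower), 0 of 18, 6 of 37 (5 higher, 1 lower) and 2 of 27 (1 higher, 1 lower), or 4.76%, 0%, 16.2% and 7.41%, beside 5.43% of all genes. Mbnl1-null muscle had 5 of 17 (2 higher, 3 lower), 1 of 10 (higher), 11 of 34 (9 higher, 2 lower) and 6 of 23 (4 higher, 2 lower), or 29.4%, 10%, 32.4% and 26.1%, beside 16.3% of all genes.

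In each list the up to 3 called genes with the largest log2 changes are named. Cilp, a secreted matrix protein first known from cartilage, was called higher in all 4 mutant groups, with log2 changes of 4.08 (SE 0.23) in line 20b and 2.92 (SE 0.23) in line 41, and of 1.84 (SE 0.25) in Clcn1-null and 2.34 (SE 0.18) in Mbnl1-null muscle. Kera and Ogn, small leucine-rich proteoglycans, were called lower in line 20b (-1.45 and -0.92), and Ltbp1, which binds latent TGF-beta, and Ecm1, a secreted glycoprotein, higher in line 41 (0.68 and 0.64). Ltbp1 was also called higher in line 20b (0.61), and Ecm1 in Mbnl1-null muscle (0.64). Smoc2, a matricellular relative of Sparc, was called lower in Clcn1-null muscle (-2.32). Aspn, a small proteoglycan related to biglycan, was called higher in Clcn1-null (1.53) and Mbnl1-null muscle (1.00). Thbs4, a thrombospondin of tendon, was called higher in Mbnl1-null muscle (0.70) and in line 20b (0.63).

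Receptors were called in both directions. In line 20b Mcam, an adhesion molecule of vessel walls, and Sdc1, a syndecan, were called lower (-1.23 and -0.91), and the integrin chain Itgav higher (1.03). In line 41 Itgav and Itgb1 were called higher (0.82 and 0.39) and Itga6, a laminin-binding integrin chain, lower (-0.68). Itgb1 was also called higher in line 20b (0.59) and Mbnl1-null muscle (0.61), and Itgav in Mbnl1-null muscle (0.91). In Clcn1-null muscle the integrin chain Itga4 was called lower (-4.15) and the muscle integrin chain Itga7 higher (1.21). In Mbnl1-null muscle Cd44, a hyaluronan receptor, and Itga5, a fibronectin receptor chain, were called higher (1.19 and 1.17) and Mcam lower (-1.14). Mcam was also near the filter value there, with means of 5.20 in Mbnl1-null and 6.34 in wild-type mice. Cd44 was also called higher in line 20b (0.73). Among genes of collagen synthesis, the prolyl 4-hydroxylase subunits P4ha2 and P4ha1 were called lower, P4ha2 in line 20b (-0.70) and Mbnl1-null muscle (-0.66) and P4ha1 in Clcn1-null (-2.27) and Mbnl1-null muscle (-0.49). The procollagen protease gene Bmp1 was called lower in line 20b (-0.43) and line 41 (-0.45), P4hb, a further prolyl 4-hydroxylase subunit, higher in both (0.24 each), and Loxl1, a lysyl oxidase relative, higher in Mbnl1-null muscle (0.50). Col7a1, the collagen of anchoring fibrils, was called higher in line 20b (0.72) and Mbnl1-null muscle (0.47), and Col22a1, a collagen of the muscle-tendon junction, higher in line 20b (0.54). Between the lines 1 of 22, 1 of 21, 3 of 38 and 1 of 27 genes of the 4 lists were called, beside 5.96% of all genes. Col22a1 (0.43), Cilp (1.17), Thbs4 (0.62) and the collagen receptor Ddr1 (0.42) were higher in line 20b than in line 41, and Ogn (-0.64) and the lysyl hydroxylase Plod3 (-0.34) lower.

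Markers of other cell types were counted beside these genes. Over all genes, 19.6% were called in line 20b (9.06% higher, 10.6% lower) and 9.46% in line 41 (3.98% higher, 5.49% lower). The fibroblast share in line 20b, 15.4%, lay under that of all genes. A summed intensity mostly follows the bright genes of its list. In the endothelial and mural list these include Rgs5 and Abcc9, with means of 14.91 and 14.44 in FVB wild type of experiment 1. In the adipocyte list they include Car3, also expressed in muscle fibres, with a mean of 14.89 in FVB wild type of experiment 3. In line 20b summed endothelial and mural intensities ran from 64334 to 75488 and in line 41 from 56244 to 74024, all below the 81220 to 96861 of FVB wild type, with 12 and 10 of the 18 markers called lower, Pecam1 and Cdh5 among them. The fibroblast sums overlapped, with 50948 to 67907 in line 20b, 54347 to 80774 in line 41 and 57681 to 87452 in wild type, and 2 of 13 markers were called in line 20b (both lower) and 0 of 13 in line 41. In line 20b 4 of 5 adipocyte markers were called lower, with sums of 77823 to 86981 in line 20b and 85388 to 163864 in wild type. Wild-type mice 1 and 2 had the highest sums, 152872 and 163864, and the other wild-type mice had 85388 to 92793, which overlaps line 20b. Calls of these markers without wild-type mice 1 and 2 are not given here. In line 20b 3 of 4 Schwann and nerve markers were called lower (2 of 4 in line 41). Tendon sums overlapped, at 35501 to 59343 in line 20b and 33358 to 55602 in wild type, with 1 of 7 markers called higher and 2 lower, and the tendon factor Mkx was under an intensity of 32 in every mouse of the 3 groups. Of 7 macrophage markers 0 were called in line 20b and 1 in line 41 (Cd68, higher). The part of these cells in the lower calls of line 20b was not tested.

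In Clcn1-null muscle 4 of 5 adipocyte markers were called higher, Cidec and Adipoq among them, and the sums of 179307 to 214802 lay above the 103328 to 119576 of BALB wild type. Macrophage sums of 20029 to 31073 also lay above the 10968 to 16260 of wild type, with 1 of 8 markers called (Cd68, higher), while fibroblast sums overlapped, at 65390 to 114724 against 92012 to 101979, with 0 of 13 called. Endothelial and mural sums of 89788 to 101253 lay above the 74489 to 83613 of wild type, with 1 of 18 markers called (higher). Tendon sums were 29687 to 46116 in Clcn1-null and 25554 to 34520 in wild-type mice, with 0 of 7 called. Schwann and nerve sums of 20811 to 30741 lay above the 13130 to 20364 of wild type, with all 4 markers tested positive and Pmp22 called higher. Over all genes, 5.43% were called in this comparison (2.2% higher, 3.23% lower). The part of these cells in the higher Postn and Bgn levels was not tested.

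In Mbnl1-null muscle fibroblast sums overlapped those of wild type (39003 to 49144 against 37112 to 46373), and of 12 markers tested 2 were called higher and 1 lower. Endothelial sums also overlapped, at 19525 to 24341 against 20190 to 21121, with 1 of 18 markers called. Tendon sums of 23137 to 27458 lay above the 16776 to 22521 of wild type, with Thbs4 and Comp called higher and Chad lower among 6 tested. Thbs4, Comp, Chad and Kera are also in the list of other matrix glycoproteins and proteoglycans, as is the fibroblast marker Mfap5. Such genes are counted in both lists. Macrophage sums of 6039 to 11234 overlapped the 4079 to 6983 of wild type, with Cd68 and Mrc1 called higher and Cd163 lower. Over all genes, 16.3% were called in this comparison (8.11% higher, 8.19% lower). The part of these cells in the 13 higher calls was not tested.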

How the data were processed

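Quadriceps RNA was hybridised to Affymetrix mouse arrays, the 430A and 430B pair in experiments 1 and 2 and a single type in experiment 3. The authors deposited linear intensities per probe set, made with GCRMA per the labels, and the version was not given in the sources used here. Intensities were turned into log2 values. The brightest probe set over all arrays with exactly 1 gene symbol stood for a gene, and genes were kept with a log2 value of at least 5 (intensity 32) on a number of arrays no smaller than the mice of the smallest group. The limma fit (version 3.58.1, R 4.3.3, lmFit and eBayes with a trend) was run within each experiment, with Benjamini-Hochberg adjustment over all genes tested. It was tested on simulated data. The genes named were the called members of the list and, of each other matrix list and comparison, the up to 3 called genes with the largest changes, and up to 2 called markers of a cell type. Chad, Mrc1, Rgs5 and Abcc9, beyond that number, were named after their values were seen, as were Car3, Mfap5 and Myh7. Calls of named genes in further groups were also added then. Alternatives covered normalisation between arrays, filter, probe set choice, eBayes settings, array weights, threshold, replicate block and leaving out mice. The list members and other lists were chosen with earlier results of these data known. Promoter windows came from RefSeq, GRCm38.p6. The number of mice limits the precision. The labels do not say whether shared replicate numbers mark litters, batches or days, and they were not treated as pairs. Correlations of same-numbered mice ran from -0.20 to 0.42, and the lowest pair of each comparison was between -0.20 and 0.03. In the Mbnl1-null comparison all were positive (0.03 to 0.42), and 3 of 5 were best with their own number. That held for 2 of 6 in line 20b, 1 of 6 in line 41, 2 of 6 between the lines and 1 of 3 in the Clcn1-null comparison. These values do not settle whether the numbers mark pairs.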

Additional observations from a re-analysis of the deposited data

Results flagged for a closer look

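Among 51 groups of called genes tested for an outlying mouse with Dixon's test, 4 held 1, and chance gives about 1 in 20 groups. In line 20b mouse 3 read 6.71 for Col24a1, beside 8.07 to 8.52 in its 5 group mates. Line 20b mouse 1 read 9.65 for Col14a1, beside 10.46 to 10.84 in the others, and 10.97 for Nid1, beside 11.67 to 11.93. Mbnl1-null mouse 5 read 8.48 for Col14a1, beside 9.54 to 9.83. The changes in the CUGexp lines differed between line 20b and line 41, tested within 1 limma fit, for Col24a1 by a log2 difference of 2.31 (SE 0.51, adjusted p = 0.0114), for Fbln1 by -0.66 (SE 0.14, adjusted p = 0.0103), for Fbln5 by -0.35 (SE 0.10, adjusted p = 0.0462) and for Bgn by 0.48 (SE 0.14, adjusted p = 0.0499).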

How the results depend on the processing

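Over 739 alternative values of called matrix genes, 575 kept their direction and call, 164 lost the call and 0 reversed. Calls lost in more than a few alternatives include Dcn and Lox in line 20b (12 of 29 each), Col15a1 in line 41 (9 of 29) and, in Mbnl1-null muscle, Col4a2 and Lum (12 of 20 each), Lamc1 (11), Col6a1 (7) and Tnc (6). In line 20b the count of 9 called genes ran from 7 to 10 with each mouse left out, and was 5 at an adjusted p under 0.01. In line 41 the count of 2 ran from 0 to 3. It was 1 with no filter, 0 with array weights (8 genes at an unadjusted limma p under 0.05), 0 at an adjusted p under 0.01 (11) and 0 without wild-type mice 1 and 2 together (5). Between the lines the count of 4 ran from 2 to 5, and was 2 with no filter, 0 at an adjusted p under 0.01 (9 at an unadjusted limma p under 0.05) and 2 with the replicate block. In Clcn1-null muscle the count of 3 ran from 0 to 6 and was 13 with array weights (9 higher, 4 lower). In Mbnl1-null muscle the count of 13 ran from 7 to 14, and was 8 with no filter and 7 at an adjusted p under 0.01. All calls there were higher under each alternative run. The cause of these shifts was not tested. With the replicate block the counts were 8 for line 20b and 2 for line 41, and 2 for Clcn1-null and 13 for Mbnl1-null muscle. Between the lines, shifting arrays to a common median moved the split over all genes to 710 higher and 251 lower, against 465 and 312, and that of the matrix genes to 3 and 1, against 2 and 2. Quantile normalisation gave 1482 higher and 1165 lower over all genes in line 20b and 592 and 304 between the lines.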
